A study of Mus musculus with 17 samples.

Results

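Myelinating oligodendrocytes of the mouse hypothalamus are described here, from the 3541 cells that carry the deposited cluster name MO. The name is the authors', from a column whose heading refers to an SVM, and no expression threshold was added to it. Of these, 3501 had a barcode found in exactly 1 library of their batch and state, out of 14276 such cells in all clusters, and all values below come from them. Cells came from 3 food-deprived and 5 normally fed B6D2F1 mice, the offspring of a C57BL6 female and a DBA2 male, and were profiled by Drop-seq, which captures polyadenylated RNA of single cells in droplets and counts unique molecular identifiers (UMIs), 1 per captured transcript. Food was withheld for 24 hours in the food-deprived mice, and the labels give neither age nor any other treatment or allele for either group. Food-deprived mouse 1 and normal mouse 3 shared batch 1, food-deprived mouse 2 and normal mouse 4 shared batch 2, normal mice 1 and 2 made up batch 0, normal mouse 5 batch 3 and food-deprived mouse 3 batch 4, so that only batches 1 and 2 held both states. The mouse was the replicate, and all its libraries were summed.

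Myelinating oligodendrocytes wrap axons of the central nervous system in compacted sheets of their own membrane. The sheets are rich in cholesterol and in galactosylceramide and other glycosphingolipids, they are held together by a small set of very abundant proteins such as myelin basic protein, and the innermost layer touches the axon through adhesion molecules such as myelin-associated glycoprotein. The lineage passes from a dividing precursor (OPC) through a newly formed, premyelinating cell (here IMO) to the myelinating cell, and mature cells also take up and store iron and pass metabolites to the axon.

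Depth and library quality were uneven. The mice gave 1100, 852 and 61 MO cells in food-deprived 1, 2 and 3, and 37, 36, 654, 431 and 330 MO cells in normal 1 to 5. Their summed MO libraries held 135590 to 2860046 UMIs in the food-deprived mice and 74863 to 1818499 UMIs in the normal mice, so that values of normal 1, normal 2 and food-deprived 3 are the least precise. The 17 libraries fell into 8 with Gapdh above 50 CPM (UMI counts scaled to the same total in every library) and 9 below it, and in MO cells Gapdh was at 84.6 to 469 CPM in the 8 and at 2.73 to 7.59 CPM in the 9. Food-deprived 3 and normal 1, 2 and 5 had only libraries of the high-Gapdh kind. Barcodes seen in more than 1 library numbered 120 of 18167, and 14 barcodes occurred in more than 1 MO cell. In 42 MO cells at least 10 UMIs came from 1 neuropeptide gene, 1 blood gene or 9630013A20Rik, a gene of newly formed oligodendrocytes in these data. They are called mixed cells below, and no doublet caller was run. The blocked fit over all mice and the response differences are given with and without them. Fits of part of the libraries or mice were run only with them kept.

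The deposited name fitted the markers of the cell type. Mag, the adhesion molecule of the axon-facing membrane, averaged 7484 ± 1843 CPM in MO (SD, n = 8 mice) and 2145 ± 706 CPM in IMO (n = 5), against at most 336 CPM, in Macro, in the other named classes outside the lineage. Mog, a surface glycoprotein of the outermost layer, stood at 2713 ± 207 CPM in MO and 344 ± 126 CPM in IMO. Mobp, a basic protein of compact myelin, was at 3386 ± 761 CPM in MO and 115 ± 82.0 CPM in IMO, Mal, a raft protein, at 4637 ± 921 CPM in MO and 64.3 ± 79.8 CPM in IMO, and Opalin, a transmembrane glycoprotein of oligodendrocytes, at 1824 ± 334 CPM in MO and 54.1 ± 33.9 CPM in IMO. For each of the 5 markers the lowest MO mouse lay above the highest mouse of every other class, and Mag came closest, with 5472 CPM in the lowest MO mouse and 2733 CPM in the highest IMO mouse. Since the clusters were made from these genes, the differences are a description with no test. With every cell thinned to 1000 UMIs, which left out 252 of 3501 MO cells, 98.95% of MO cells held a Mag UMI and 70.7% an Opalin UMI (99.4% and 81.5% unthinned), and 4.09% and 0.884% of neurons, which should lack both, did so (13.7% and 3.31% unthinned), a share that free RNA in droplets can give.

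**Figure D1:**
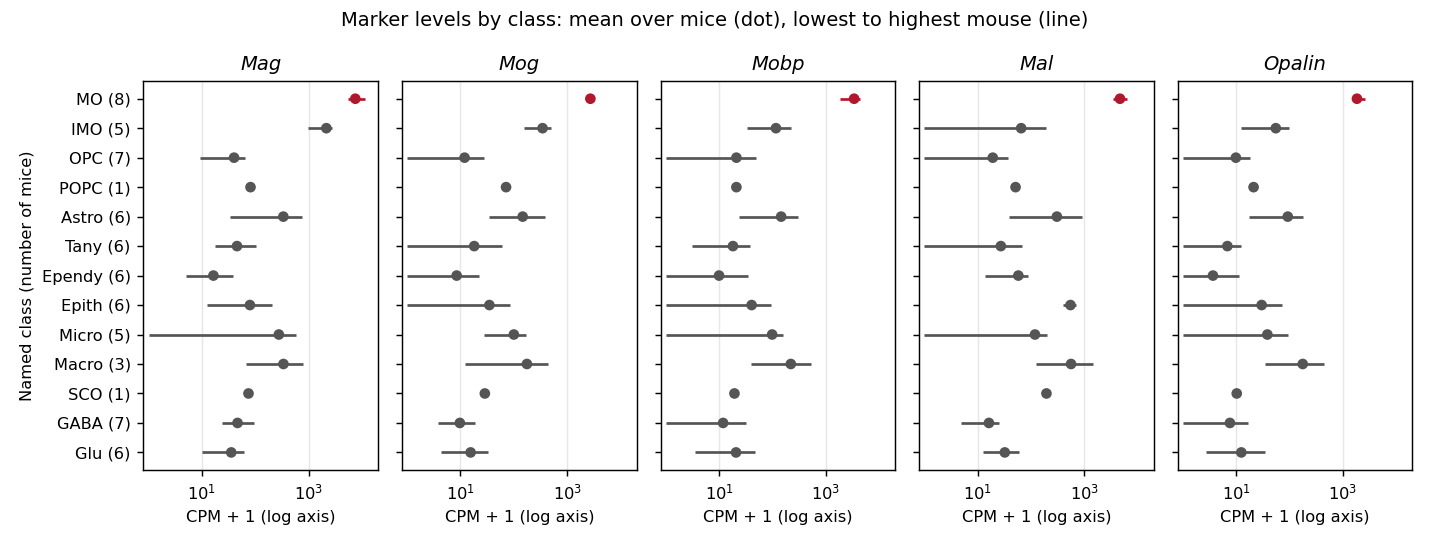
Level of Mag, Mog, Mobp, Mal and Opalin in each deposited class, as CPM plus 1 on a log axis, with the mean over mice as a dot and the lowest to highest mouse as a line. MO stands at the right in all 5 panels, and IMO comes next for Mag (2145 CPM) and Mog (344 CPM).

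The promoters of 2 of these markers are shown because the HMG-box element ACAAAG, the core bound by SOX proteins and so by the oligodendrocyte factor SOX10, recurs in them. The sequences run from 250 bases before to 50 bases after the annotated start, are RefSeq promoters of build GRCm38.p6, and were matched by gene symbol. Mobp lies at chr9:120149492-120149791 on the plus strand and Opalin at chr19:41077064-41077363 on the minus strand. Capitals mark ACAAAG or its reverse complement.
Mobp: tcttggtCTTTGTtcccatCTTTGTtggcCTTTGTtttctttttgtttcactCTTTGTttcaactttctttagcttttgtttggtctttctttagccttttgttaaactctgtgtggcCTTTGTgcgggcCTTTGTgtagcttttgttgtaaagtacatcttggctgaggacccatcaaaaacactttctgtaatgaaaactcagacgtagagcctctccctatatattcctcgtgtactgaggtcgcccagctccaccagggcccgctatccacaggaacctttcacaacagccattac
Opalin: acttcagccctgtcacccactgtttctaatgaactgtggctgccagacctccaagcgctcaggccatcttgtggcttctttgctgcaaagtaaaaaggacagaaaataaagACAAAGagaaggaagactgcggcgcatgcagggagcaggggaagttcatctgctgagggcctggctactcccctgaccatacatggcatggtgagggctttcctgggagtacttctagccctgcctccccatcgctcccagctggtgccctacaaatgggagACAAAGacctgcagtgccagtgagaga
Mobp held 6 copies, all on the other strand, the first starting 243 bases before the start site, and Opalin held 2. A copy on either strand was present in 3 of the 5 markers (Mag, Mobp and Opalin), against 21.02% of the 27025 genes in the table. It was present in 7 of 15 matched compact myelin genes, and these 3 markers are among the 7. Of the matched genes of axon contact, paranodes and gap junctions, 3 of 15 held a copy, close to the share of all genes. A match is a description of these letters and no evidence of binding.

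Myelin and iron genes were among the highest in MO cells. Fth1, the ferritin heavy chain that stores iron, reached 20060 ± 3106 CPM (SD, n = 8). Malat1, a nuclear noncoding RNA, stood at 12010 ± 4900 CPM, Mbp, which encodes myelin basic protein, at 11570 ± 1207 CPM and Ptgds, which makes prostaglandin D2, at 11070 ± 3917 CPM. Also among the 10 highest genes were Car2, a carbonic anhydrase, at 8014 CPM, Mag, Cldn11, the tight junction claudin of myelin, at 7227 CPM, Cnp, a phosphodiesterase of non-compact myelin, at 7147 CPM, and Trf, the iron carrier transferrin, at 7085 CPM. Of the genes named here, Malat1 and Ptgds had the widest spread over mice, with 4691 to 19130 CPM and 5005 to 16800 CPM.

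Relative to the named classes outside the lineage, the 10 genes with the largest ratio among the 3310 genes at 50 CPM or more in MO were led by Nipal4, a magnesium transporter family member, with 50.3 ± 15.4 CPM in MO and 1.56 ± 2.18 CPM in Micro, the next class. Enzymes of myelin glycolipids were among them. Fa2h, which hydroxylates the fatty acids of galactosylceramide, was 25.6 times higher in MO (1020 ± 191 CPM) than in the next class (39.9 ± 39.9 CPM in Macro), and Ugt8a, which adds the galactose, 20.3 times higher (1160 ± 363 CPM in MO, 57.3 ± 59.6 CPM in Micro). The list also held Cyp2j12, Mag, Tmem125, Ermn, a cytoskeletal protein of the sheath (4357 ± 612 CPM in MO and 224 ± 235 CPM in Astro), Trim59 and Hapln2, a hyaluronan link protein of nodes of Ranvier (632 ± 125 CPM in MO and 38.3 ± 39.3 CPM in Micro). The tenth, 9630013A20Rik, does not mark MO cells in general: a UMI was found in 1.06% of them, and its 246 ± 357 CPM ranged from 1.87 CPM to 1042 CPM over mice, with 93.2% of its 577 UMIs in 14 cells. Of the 10, 8 were also among the 10 highest when MO was set against the mean of the classes.

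Against IMO, the cell stage before them, Ermn, Car2, Anln, Aspa and Tppp3 were among the 10 genes with the largest ratios. Ermn was at 4357 ± 612 CPM in MO and 35.9 ± 31.1 CPM in IMO, Car2 at 8014 ± 569 CPM in MO and 59.6 ± 50.4 CPM in IMO, and Anln, a septin-binding scaffold, at 428.5 ± 125 CPM in MO and 2.58 ± 5.76 CPM in IMO. Aspa, which splits N-acetylaspartate into acetate and aspartate, stood at 817 ± 130.1 CPM in MO and 10.8 ± 16 CPM in IMO, and Tppp3, a tubulin-binding protein, at 962 ± 307 CPM in MO and 12.2 ± 7.43 CPM in IMO. Cdc42ep2, Itgb4, Pcolce2, Klk6 and Stmn1 completed the 10 largest ratios, and Stmn1 was the only one of these 10 whose MO level differed over 10-fold between mice, with 184 to 2509 CPM. Stmn1 also differed between libraries of the same mouse. In food-deprived 1 it was at 1362 CPM in the high-Gapdh library and at 212.5, 251.5 and 307 CPM in the low-Gapdh libraries. Lowest relative to IMO was Bmp4, a growth factor of newly formed cells, with 0.355 ± 0.422 CPM in MO and 849.9 ± 144 CPM in IMO, followed by Gp1bb, Matn1, Dmrtb1 and Mycl1, each below 1 CPM in MO. Several of these IMO or MO means rest on a few UMIs, so levels are given in place of ratios.

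MO cells were not uniform. A UMI of Klk6, a secreted serine protease that marks one kind of mature oligodendrocyte, was present in 9.84 to 16.9% of the MO cells of the food-deprived mice and 11.1 to 21.9% of those of the normal mice. In the 5 mice with at least 20 such cells, the summed counts of the cells with and without the UMI were compared as a description, with a pseudocount of 5 CPM. The Klk6 cells were deeper, with a median of 3135 against 2059 UMIs in food-deprived 1 and 3025 against 2267 UMIs in normal 3, and a deeper cell is more likely to show a UMI. Hopx, a homeodomain protein without DNA binding, was at 274 ± 66 CPM in Klk6 cells and 11.5 ± 2.81 CPM in the other MO cells (SD, n = 5 mice). S100b, a calcium-binding protein, was at 2229 ± 573 CPM in Klk6 cells and 168 ± 43.8 CPM in the others, the lipocalin Apod at 12000 ± 2980 CPM and 5391 ± 968 CPM, and Enpp6, a choline phosphodiesterase usually counted as a gene of newly formed cells, at 263 ± 53.5 CPM and 60.5 ± 18.1 CPM. Ptgds went the other way, with 1706 ± 1021 CPM in Klk6 cells and 13710 ± 5648 CPM in the others, as did the alarmin Il33 (149 ± 28.6 and 1144 ± 123 CPM) and Opalin (397 ± 58.9 and 2097 ± 218 CPM). All of these lay on the same side in 5 of 5 mice. Of 3591 genes compared, 1002 lay on the same side in all 5 mice, and 60 of these were at least 2-fold higher and 64 at least 2-fold lower in Klk6 cells. The main myelin genes hardly differed: the mean log2 ratio was 0.05 ± 0.07 for Mag, 0.02 ± 0.10 for Mobp and -0.05 ± 0.10 for Mbp. Opalin, one of the 5 markers, was thus the one that varied most with Klk6, and Mal followed at -0.78 ± 0.13.

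**Figure D2:**
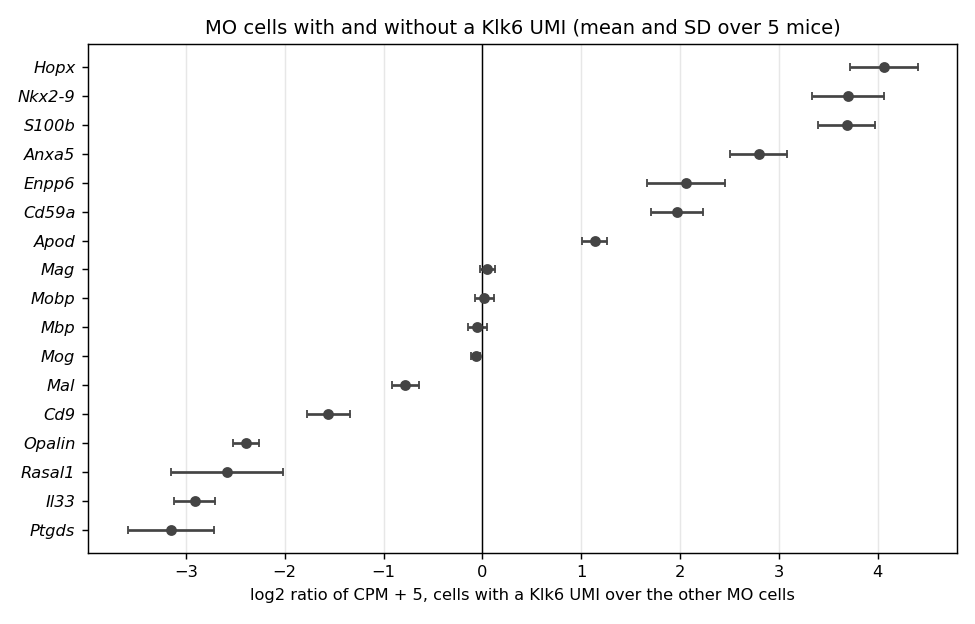
Log2 ratio of CPM plus 5 in MO cells with a Klk6 UMI over the other MO cells of the same mouse, as mean and SD over the 5 mice with at least 20 Klk6 cells. Hopx and S100b stand at the top, Ptgds, Il33 and Opalin at the bottom, and Mag, Mobp, Mbp and Mog near 0.

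Whether feeding state went with the number of MO cells was asked first. MO cells made up 30.2, 29.1 and 4.74% of the annotated cells of food-deprived 1, 2 and 3, and 28.7, 22.8, 25.5, 25.2 and 17.7% of those of normal 1 to 5. Wilson 95% intervals, for counting error only, were 3.71 to 6.05% in food-deprived 3 and, at the widest, 21.6 to 37.0% in normal 1. Food-deprived 3 stood far below the rest and the other food-deprived mice slightly above them. The mean share was 21.4 ± 14.4% in food-deprived mice and 24.0 ± 4.09% in normal mice (SD, n = 3 and 5; two-sided exact permutation test, p = 0.75, where 56 assignments allow no p under 0.036). Within batches 1 and 2 the food-deprived mouse had the higher share, by 4.73 and 3.91 percentage points, and without food-deprived 3 the difference was 5.70 points in the same direction. Of the cells named MO, IMO, OPC or POPC, MO made up 58.5 ± 17.4% in food-deprived and 60.9 ± 7.52% in normal mice (exact permutation p = 0.786), again with food-deprived 3 lowest at 38.6%. The median UMI count of an MO cell was 2186, 2428 and 1701 in food-deprived 1 to 3 and 1625, 1857, 2413, 2433 and 1456 in normal 1 to 5, and its log2 mean did not pass the test (11.02 and 10.90, exact permutation p = 0.643). Recovery of cells from dissociated tissue and their number in the tissue cannot be told apart.

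**Figure D3:**
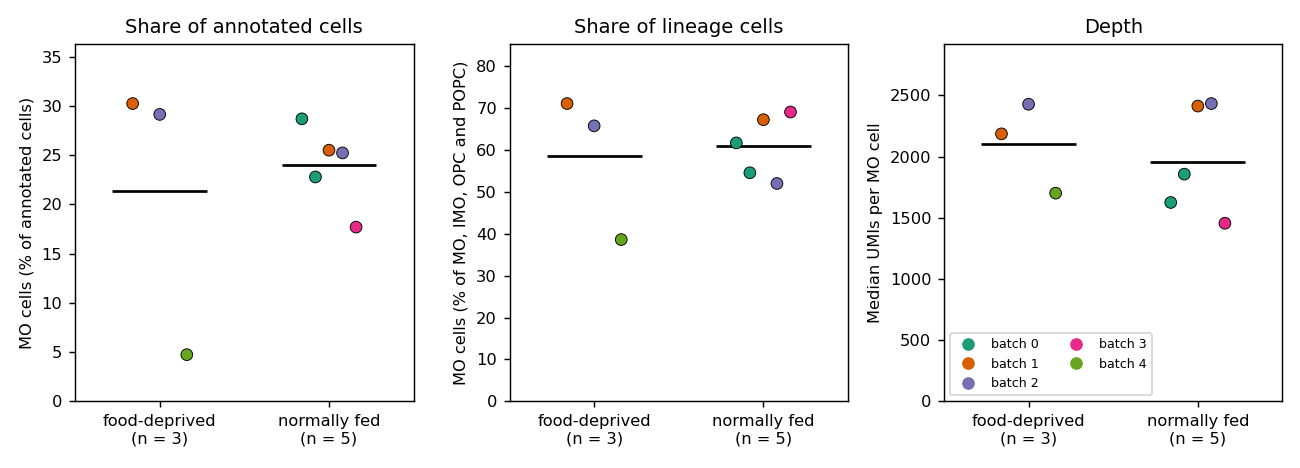
MO cells as a percentage of annotated cells and of lineage cells, and median UMIs per MO cell, for each of 3 food-deprived and 5 normally fed mice, coloured by batch, with the group mean as a line. Food-deprived 3 (batch 4) lies at 4.74% of annotated cells, below every other mouse.

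Counts of MO cells were then summed per mouse and compared between feeding states. No gene of 7977 tested passed an adjusted p of 0.05 in the fit with feeding state alone (0.0%, edgeR's quasi-likelihood test with Benjamini-Hochberg adjustment, smallest adjusted p 0.286, for Gabrr2), while 315 genes (3.95%) had an unadjusted p under 0.05 and DESeq2 called 1 gene (0.0125%), Pomc. Leaving out food-deprived 1 also gave 1 call of 6949 (0.0144%), again Pomc, and testing all genes without a filter gave 22 of 16087 (0.137%). With batch as a block, which rests the comparison on the pairs within batches 1 and 2, 16 genes passed (0.201%), 13 higher (0.163%) and 3 lower (0.0376%). With the mice of these batches alone 71 of 9633 genes passed (0.737%), and with their low-Gapdh libraries alone 37 of 9277 (0.399%), the smallest p there being that of the blood gene Beta-s, of whose UMIs 97.2% lay in 13 MO cells. The low-Gapdh fit held 4 mice, 2 of them food-deprived. Mixed cells were kept in it and in the fit of batches 1 and 2 alone. Values quoted below from these 2 fits come from part of the same cells, and neither was run without mixed cells. The high-Gapdh libraries were fitted without the block over 7 mice, 3 of them food-deprived, and 0 of 3945 genes passed (0%). Without the 42 mixed cells the blocked fit called 0 of 7869 genes (514 at an unadjusted p under 0.05, smallest adjusted p 0.073, for Plin4), so each of the 16 calls was lost. The log2 changes of Htra1 (1.36), Plin4 (2.15), Pnpla2 (1.17) and Elovl6 (-1.01) stayed close. This does not extend to all 16, since Pomc, another of them, had 289 of its 380 UMIs in 2 of the mixed cells. DESeq2 with the block called 3 (0.0376%), Plin4, Htra1 and Ppia. In 252 genes (3.16%) the 3 food-deprived mice lay wholly above (155, 1.94%) or wholly below (97, 1.22%) the 5 normal mice. Values below are CPM on edgeR's TMM-scaled library totals, and "rose" or "fell" refers to the blocked fit.

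The 16 genes called with the block (0.201% of 7977) included 2 of 11 tested lipid droplet and lipolysis genes, Plin4 and Pnpla2, and 3 of 22 tested glucocorticoid-induced genes, Htra1, Plin4 and Phyhd1. The lipid droplet and lipolysis list as a whole showed no direction, with 6 positive and 5 negative changes without the block. Its median log2 change was 0.03, and 0.15 with the block. Htra1, a secreted serine protease, was at 409, 609 and 316 CPM in food-deprived 1 to 3, and at 251, 297, 187, 207 and 142 CPM in normal 1 to 5. The groups did not overlap. Htra1 rose by 1.34 ± 0.17 on the log2 scale with the block (SE, edgeR adjusted p = 0.0032; 1.15 ± 0.25 and adjusted p = 0.338 without it), and stood 2.19-fold and 2.94-fold higher in the food-deprived mouse of batches 1 and 2. Plin4, a coat protein of lipid droplets, was at 62.7, 248 and 105 CPM in food-deprived 1 to 3, and at 26.4, 74.2, 15.5, 53.4 and 0 CPM in normal 1 to 5. Normal 2 exceeded food-deprived 1, and the pairs within batches differed 4.04-fold and 4.63-fold. Plin4 rose by 2.13 ± 0.22 (SE, edgeR adjusted p = 0.00049 with the block, 0.445 without). Pnpla2, the adipose triglyceride lipase that starts the breakdown of droplet fat, was at 74.9, 128 and 30.1 CPM in food-deprived and 13.2, 37.1, 37.2, 50.8 and 18.2 CPM in normal mice, and rose by 1.17 ± 0.21 (edgeR adjusted p = 0.029 with the block, 0.445 without). Its food-deprived 3 lay within the normal range. Htra1 and Plin4 also passed in the low-Gapdh libraries alone (edgeR with block, adjusted p = 0.00017 and 3.13e-05), where both feeding states were of 1 library kind and the mixed cells were kept. No gene passed in the high-Gapdh libraries, which were fitted without the block.

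Plin4 had its highest level in MO among the named classes. Its mean was 136 ± 93.1 CPM in MO of food-deprived mice and 33.8 ± 29.9 CPM in MO of normal mice on plain totals, and the next class, Ependy, had 27.6 ± 21.7 and 15.7 ± 11 CPM. Htra1 was higher still in Astro, with 1381 ± 528 CPM in food-deprived and 822 ± 297 CPM in normal mice. Markers of astrocytes and tanycytes summed to 162 to 280 CPM in MO of food-deprived mice and to 107 to 403 CPM in MO of normal mice over the 15 listed genes, none of which was at 0 in all MO cells, and their part in the Htra1 value was not tested.

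Of the other genes that rose, Phyhd1, a dioxygenase domain protein, was at 29.3, 45.2 and 0 CPM in food-deprived and 0, 74.2, 3.89, 4.31 and 2.03 CPM in normal mice, with a log2 change of 3.10 ± 0.47 with the block (edgeR adjusted p = 0.013). Its highest value was in normal 2, and the batch pairs differed 7.53-fold and 10.5-fold. Itgad, an integrin alpha subunit known from leukocytes, was at 65.2, 179 and 158 CPM in food-deprived and 52.9, 111, 33.9, 51.7 and 26.3 CPM in normal mice (log2 change 1.39 ± 0.23 with the block, edgeR adjusted p = 0.021). Gabrr2, a rho subunit of the GABA-A receptor, was at 36.2, 62.4 and 15.1 CPM in food-deprived and 26.4, 24.7, 11.7, 12.1 and 12.2 CPM in normal mice (1.97 ± 0.30, edgeR adjusted p = 0.013). Ogdhl, a paralogue of a Krebs cycle enzyme, Gm15417 and Scrg1 rose by 2.45, 1.35 and 1.29 (edgeR adjusted p = 0.029, 0.029 and 0.021 with the block). None of these 6 separated the groups, since normal 1 or normal 2 reached the food-deprived range. For Phyhd1, food-deprived 3 at 0 CPM also lay below or level with every normal mouse.

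Among the calls 3 genes fell with the block. Micall1, which works in endosomal recycling, was at 79.1, 80.5 and 75.2 CPM in food-deprived 1 to 3 and at 106, 161, 172, 147 and 142 CPM in normal 1 to 5. The groups did not overlap, and the log2 change was -1.002 ± 0.18 (SE, edgeR adjusted p = 0.029; -0.92 and 0.445 without the block). Elovl6, which elongates C16 fatty acids, was at 154, 141 and 271 CPM in food-deprived and 344, 247, 290.2, 278 and 365 CPM in normal mice, and fell by 0.94 on the log2 scale (edgeR adjusted p = 0.029; -0.79 without the block, adjusted p = 0.79). Food-deprived 3 overlapped the normal mice. Eml1, a microtubule-binding protein, was at 99.0, 108 and 97.8 CPM in food-deprived and 79.3, 124, 251, 190.4 and 107 CPM in normal mice (-1.09 ± 0.18 with the block, edgeR adjusted p = 0.021). Gpd2, the mitochondrial glycerol-3-phosphate dehydrogenase, was among the 10 smallest p-values of the fit with feeding state alone but was called in neither fit over all mice: it was at 45.3, 54.7 and 52.7 CPM in food-deprived and 92.5, 99.0, 98.8, 87.0 and 126 CPM in normal mice, without overlap (log2 change -1.01 ± 0.21, edgeR adjusted p = 0.299). With the block it passed in the low-Gapdh libraries alone and in batches 1 and 2 alone (edgeR adjusted p = 0.044 and 0.017), both with the mixed cells kept.

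The remaining 4 calls were Gapdh, Ppia, Gstp1 and Pomc. Gapdh and Ppia, whose log2 changes were 1.79 and 1.35 with the block (edgeR adjusted p = 0.044 and 0.011), had the opposite sign without it, -0.46 and -0.24, and in the low-Gapdh libraries alone their values were -0.14 and 0.39 (adjusted p = 0.976 and 0.569). In batch 1, normal 3 had only low-Gapdh libraries, while food-deprived 1 also had a high-Gapdh library, with Gapdh at 469 CPM in its MO cells. That pair therefore differed in library kind as well as in feeding state. Both genes have processed pseudogenes with which counting could share reads, and this was not tested. Gstp1, a glutathione transferase with the near-identical copy Gstp2, was at 1507, 1642 and 466.4 CPM in food-deprived and 1123, 1460, 725, 911 and 444 CPM in normal mice (0.95 with the block, edgeR adjusted p = 0.0302), and in the low-Gapdh libraries its log2 change was 0.63 (adjusted p = 0.114). Pomc, the precursor of melanocortin peptides made by neurons, was at 13.6, 135 and 37.6 CPM in food-deprived and 0, 0, 5.55, 7.75 and 6.08 CPM in normal mice. Of its 380 UMIs in MO cells, 289 lay in 2 cells and 253 in 1 cell of food-deprived 2. With every cell thinned to 1000 UMIs, 1.23% of MO cells and 3.86% of neurons held a Pomc UMI (2.26% and 12.6% unthinned). By mouse, the thinned share of MO cells with a Pomc UMI was 1.85%, 1.10% and 3.45% in food-deprived 1 to 3 and 0%, 0%, 0.32%, 1.24% and 1.16% in normal 1 to 5, so that normal 4 and 5 reached the food-deprived range, and the part of free RNA in it was not tested.

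**Figure D4:**
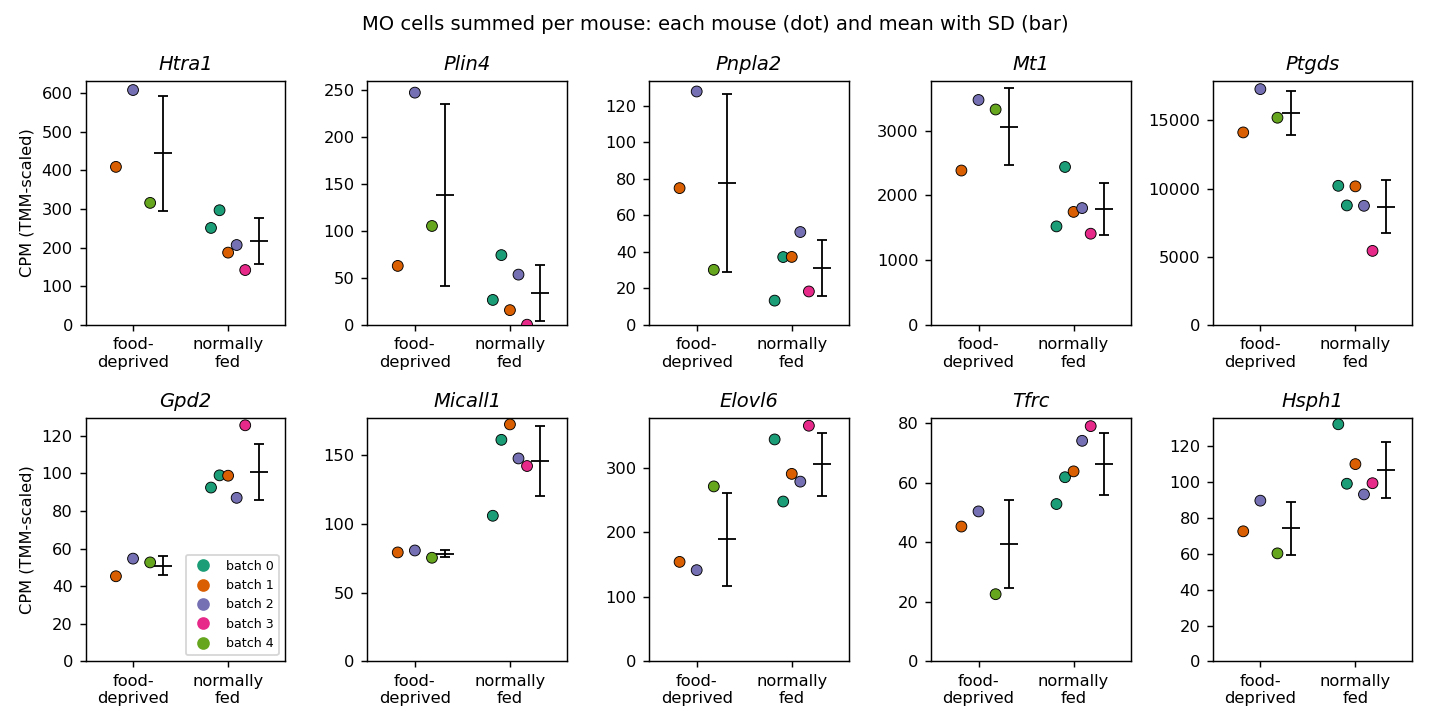
Summed MO counts per mouse in TMM-scaled CPM for Htra1, Plin4, Pnpla2, Mt1, Ptgds, Gpd2, Micall1, Elovl6, Tfrc and Hsph1, in 3 food-deprived mice (left in each panel) and 5 normally fed mice (right), coloured by batch, with mean and SD. Htra1 and Ptgds lie higher and Gpd2, Micall1, Tfrc and Hsph1 lower in the food-deprived mice without overlap, while Plin4, Pnpla2, Mt1 and Elovl6 overlap.

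Most genes listed as induced by glucocorticoids, the adrenal stress hormones, had positive changes. This list, like the others here, was chosen with earlier results of these data known, so its counts are a description and no test. Of 26 listed genes 22 passed the filter, 21 of them with a positive log2 change, against 49.4% of all genes tested, and their median was 0.52, against -0.0046 over all genes. With the block, 3 were called, Htra1, Plin4 and Phyhd1, against 0.201% of all genes, and the median was 0.39. None was called without the block, nor with it once the 42 mixed cells were left out. Mt1, a metal-binding metallothionein, was at 2382, 3472 and 3325 CPM in food-deprived 1 to 3 and 1519, 2437, 1743, 1802 and 1406 CPM in normal 1 to 5. Normal 2 exceeded food-deprived 1 and the other normal mice did not (log2 change 0.78 ± 0.20, edgeR adjusted p = 0.61, and 0.010 with the block in the low-Gapdh libraries alone). Fam107a, an actin-bundling stress gene, was at 23.3, 49.5 and 30.1 CPM in food-deprived and 13.2, 49.5, 10.5, 13.8 and 10.1 CPM in normal mice, and the cell cycle inhibitor Cdkn1a at 66.9, 496 and 97.8 CPM in food-deprived and 0, 297, 48.8, 60.3 and 30.4 CPM in normal mice. For Plin4, Phyhd1, Mt1, Fam107a and Cdkn1a, normal 2 was the highest normal mouse. Mt1 and Cdkn1a were chosen after their values were seen. Of the neuronal marker list, 12 of 14 genes passed the filter and 10 of these had a positive change (median 0.44), with Tubb3 at 183, 341 and 211 CPM in food-deprived and 66.1, 173, 134, 149.9 and 99.3 CPM in normal mice. Neuronal markers summed to 1198 to 1733 CPM in food-deprived and 147 to 1765 CPM in normal mice, no marker was at 0, and their part in the glucocorticoid list was not tested.

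Heat shock genes, which encode chaperones, mostly had negative changes. Of 20 listed genes 18 passed the filter and 14 had a negative change, against 50.6% of all genes, with a median of -0.30 (-0.29 with the block), and none was called in either fit. Hsph1, a nucleotide exchange factor of Hsp70, was at 72.5, 89.5 and 60.2 CPM in food-deprived 1 to 3 and 132, 99.0, 109.9, 93.0 and 99.3 CPM in normal 1 to 5 (log2 change -0.41 ± 0.20, edgeR adjusted p = 1). Hspd1, the mitochondrial chaperonin, was at 128, 116 and 135 CPM in food-deprived and 145, 186, 151, 158 and 188 CPM in normal mice (-0.41 ± 0.21, adjusted p = 1). Both separated the groups without overlap, in a comparison where 1.22% of all genes did so in that direction.

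Promoters of 1 gene of each of these lists are shown, since the elements bound by the glucocorticoid receptor and the heat shock factor are known. Mt1 lies at chr8:94178839-94179138 on the plus strand and Hsph1 at chr5:149636266-149636565 on the minus strand (RefSeq, GRCm38.p6, 250 bases before to 50 after the start). Capitals mark ACA and TGTTC set 3 bases apart, letters of the glucocorticoid response element, in Mt1, and GAA, TTC and GAA set 2 bases apart, a row of 3 heat shock units, in Hsph1, each on either strand. Of the 2 Hsph1 promoters in the table, the one with the match is shown.
Mt1: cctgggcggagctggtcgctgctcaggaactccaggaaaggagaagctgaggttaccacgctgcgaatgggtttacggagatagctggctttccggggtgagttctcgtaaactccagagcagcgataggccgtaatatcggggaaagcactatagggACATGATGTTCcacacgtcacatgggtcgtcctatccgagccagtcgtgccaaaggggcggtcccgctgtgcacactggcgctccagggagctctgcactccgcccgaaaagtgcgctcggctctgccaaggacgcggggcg
Hsph1: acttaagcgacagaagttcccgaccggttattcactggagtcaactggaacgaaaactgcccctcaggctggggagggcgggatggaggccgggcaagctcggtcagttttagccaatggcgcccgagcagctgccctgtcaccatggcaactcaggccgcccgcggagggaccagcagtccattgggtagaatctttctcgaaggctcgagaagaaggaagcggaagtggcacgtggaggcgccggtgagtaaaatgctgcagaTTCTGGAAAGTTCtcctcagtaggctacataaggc
The first pattern was in 3 of 23 matched glucocorticoid genes (Sgk1, Mt1 and Fam107a), against 1.12% of the 27025 genes in the table, and its full palindrome, AGAACA and TGTTCT set 3 bases apart, in 1 of them, Sgk1, against 0.01%. The heat shock row was in 4 of 16 matched heat shock genes (Hsph1, Hspd1, Hspe1 and Chordc1), against 0.66% of all. Hspd1 and Hspe1 are neighbours that start from a shared promoter in mammals. The list and motif pairs were chosen with the lists' direction known, and a match says nothing of binding in these cells.

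Genes of membrane lipid synthesis mostly had lower values in the food-deprived mice, and Elovl6 was the only gene of these 2 lists called with the block in all mice. In cholesterol synthesis, 24 genes were listed, 21 passed the filter and 18 of these had a negative change, against 50.6% of all genes tested, with a median of -0.19 (-0.15 with the block). None was called in either fit, and 6 of the 21 had an unadjusted p under 0.05 with feeding state alone, against 3.95% of all genes. Fdft1, squalene synthase, was at 95.5, 101 and 67.7 CPM in food-deprived and 225, 186, 138, 105 and 199 CPM in normal mice, without overlap (log2 change -0.78 ± 0.26 and edgeR adjusted p = 1; -0.31 with the block). Fdps, the enzyme before it, was at 90.9, 123 and 158 CPM in food-deprived and 304, 223, 111, 163 and 261 CPM in normal mice. The difference was smaller within batches for both, with ratios of 0.694 and 0.958 for Fdft1 and 0.819 and 0.756 for Fdps in batches 1 and 2. The sterol regulatory element of the LDL receptor gene, searched letter for letter, was in 0 of 17 matched cholesterol promoters, and CCAAT was in 16 of 17, against 0.1% and 41.06% of all genes.

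Of 25 genes of myelin sphingolipids and fatty acid elongation, 20 passed the filter and 15 had a negative change (median -0.14). Besides Elovl6, Ugt8a, which makes galactosylceramide, was at 774, 805 and 1098 CPM in food-deprived and 1757, 817, 1299, 1316 and 1615 CPM in normal mice (log2 change -0.62 ± 0.23, edgeR adjusted p = 1, and 0.0078 with the block in the low-Gapdh libraries alone). Normal 2 lay within the food-deprived range. Aspa went against the list, at 1039, 945 and 940.4 CPM in food-deprived and 793, 730, 693, 772 and 742 CPM in normal mice, without overlap (0.39 ± 0.16, adjusted p = 1). Tfrc, the receptor that takes up transferrin-bound iron, was at 45.3, 50.4 and 22.6 CPM in food-deprived and 52.9, 61.9, 63.8, 74.1 and 79.0 CPM in normal mice, without overlap (-0.61 ± 0.21, edgeR adjusted p = 1). The gap was narrow, and in normal 1 and food-deprived 3, with 74863 and 135590 MO UMIs, these levels rest on few UMIs. Of all genes 1.94% separated the groups upward, as Aspa did, and 1.22% downward, as Tfrc did. The other iron genes were few, with 7 of 14 past the filter.

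The myelin proteins themselves showed no direction. The list of compact myelin proteins also holds genes of other parts of myelin, such as Mag and Cnp. Of its 19 genes 18 passed the filter, 8 with a positive and 10 with a negative change (median -0.05), and none was called. The log2 change was -0.25 ± 0.20 for Mag, 0.24 ± 0.21 for Mobp and 0.07 ± 0.20 for Mal, and 0.01 for Mog and 0.002 for Opalin (all edgeR adjusted p = 1), and the signs of Mal, Mog and Opalin turned between settings. Genes of axon contact, paranodes and gap junctions had 7 of 23 positive and 16 negative changes, against 50.6% negative over all genes. Their median was -0.05, and -0.19 with the block, and none was called in either fit. Transcription factors of the lineage had 8 of 14 positive. Genes of the unfolded protein response had 7 of 24 positive (median -0.12), with Hspa5, the chaperone BiP, at 327, 293 and 542 CPM in food-deprived and 634, 483, 585, 464 and 640.2 CPM in normal mice (edgeR adjusted p = 0.026 with the block in the low-Gapdh libraries alone). Of 15 immediate early genes past the filter 14 had a positive change with a median of 0.23 and none was called. Fos, a transcription factor induced by activity and by dissociation, was at 2215, 2733 and 2317 CPM in food-deprived and 1744, 1497, 1865, 1721 and 3158 CPM in normal mice.

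**Figure D5:**
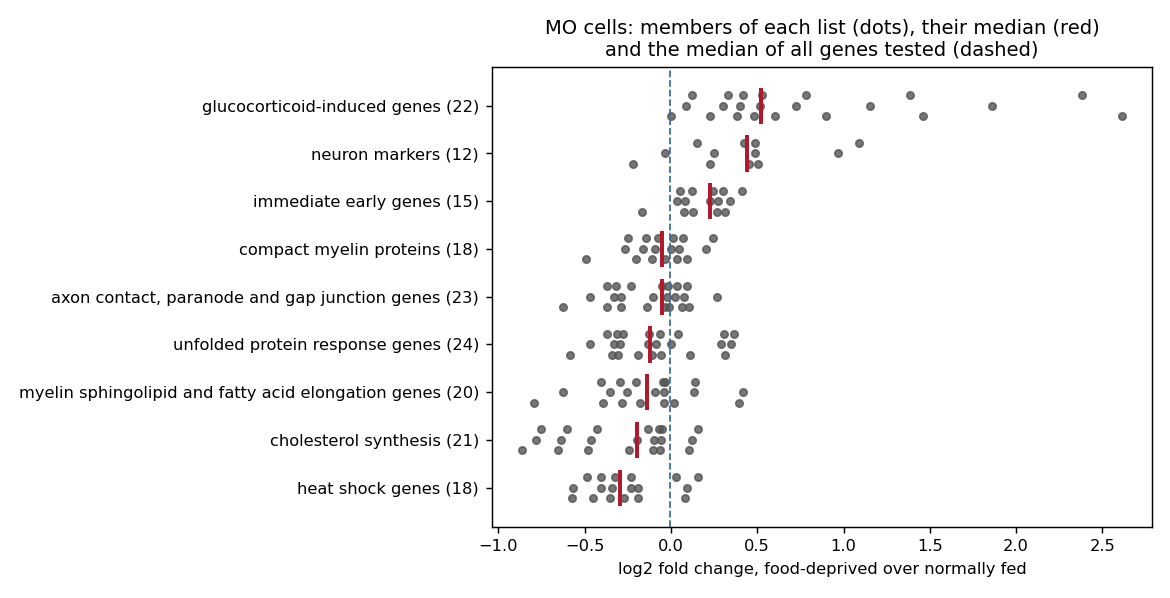
Log2 fold change of food-deprived over normally fed mice in MO cells for the members of 9 gene lists that passed the filter (dots, with their number in brackets), with each list's median in red and the median of all 7977 genes tested as a dashed line at -0.0046. The glucocorticoid list lies to the right (median 0.52) and the heat shock list to the left (median -0.30).

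Ptgds, one of the 10 highest genes of MO cells, was at 14120, 17300 and 15200 CPM in food-deprived 1 to 3 and at 10200, 8759, 10160, 8732 and 5421 CPM in normal 1 to 5, without overlap. The log2 change was 0.85 ± 0.20 (SE, edgeR adjusted p = 0.445; 0.73 with the block, adjusted p = 0.24), so Ptgds was called in neither fit over all mice. It passed with the block in the low-Gapdh libraries alone (edgeR adjusted p = 0.0053), a fit of 4 of these mice with the mixed cells kept. The batch pairs differed 1.39-fold and 1.98-fold. Since Ptgds was low in Klk6 cells, their share matters beside it: 15.9, 16.9 and 9.84% in food-deprived and 13.5, 11.1, 21.9, 15.8 and 18.8% in normal mice, and its part in the Ptgds value was not tested. Among classes outside MO with 3 mice of each state, Ptgds was highest in Epith, at 2552 ± 1614 CPM in food-deprived and 2333 ± 1944 CPM in normal mice.

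Whether the response differed between MO and its relatives was tested directly, as the class by feeding state term with the mouse as block. Against OPC, 10 of 10154 genes differed (0.0985%), over 3 food-deprived and 4 normal mice. Against IMO, 3 of 7136 did (0.042%), and against Astro 2 of 8394 (0.0238%), and DESeq2 called none in any of the 3, with 118, 84 and 119 genes at an unadjusted p under 0.05. Cdkn1a was at 258 CPM in food-deprived and 124 CPM in normal MO, against 80.9 and 98.2 CPM in OPC, a log2 difference between the responses of 1.61 ± 0.26 (SE, edgeR adjusted p = 4.86e-06). For Htra1 the means were 523 CPM in food-deprived and 239.8 CPM in normal MO, against 344 and 257 CPM in OPC (0.86 ± 0.18, adjusted p = 0.0040), for Ugt8a 1048 and 1469 CPM in MO, against 189 and 140.0 CPM in OPC (-0.97 ± 0.19, adjusted p = 0.0024), and for Mtap7d2, a microtubule-associated protein, 387 and 239 CPM in MO, against 245 and 269 CPM in OPC (0.84 ± 0.18, adjusted p = 0.0049). Without the mixed cells these 4 and Scrg1 still passed, and the count against OPC was 12. The calls depended on single mice. Without food-deprived 2 the Cdkn1a difference was 0.07 (edgeR adjusted p = 1), and Htra1, Ugt8a and Mtap7d2 lost their calls (adjusted p = 0.164, 0.261 and 0.221), as they did without normal 3 (0.589, 0.221 and 0.221). Their log2 differences were 0.86, -0.88 and 0.85 without food-deprived 2 and at 0.73, -0.95 and 0.88 without normal 3. Htra1 was also lost without food-deprived 1 (0.208) and Ugt8a without normal 4 (0.103). Scrg1, at 179 CPM in food-deprived and 64.2 CPM in normal MO, against 1108 and 910.5 CPM in OPC (1.36 ± 0.21), passed with each mouse left out in turn.

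Against IMO the called genes were Scrg1, Marcks and 9630013A20Rik, which IMO cells carry at a far higher level. Scrg1 was at 149 CPM in food-deprived and 44.6 CPM in normal MO, against 852 and 923 CPM in IMO, and 9630013A20Rik at 78.5 and 21.5 CPM in MO, against 1139 and 1290 CPM in IMO. Without the mixed cells 1 of the 3 remained: Scrg1, with a log2 difference of 1.75 (1.73 with them, edgeR adjusted p = 1.5e-05 in both, and 0.463 without food-deprived 2), while those of 9630013A20Rik and Marcks were 0.61 and 0.80 (adjusted p = 1 for both), where 9630013A20Rik was itself one of the genes that picked those cells. With batch by class terms none of the 3 passed: Scrg1 was at 1.51 (edgeR adjusted p = 0.62), 9630013A20Rik at 1.18 (0.99) and Marcks at 1.55 (0.94). Against Astro, Phyhd1 differed with and without these cells (2.71 and 2.74, edgeR adjusted p = 0.026 and 0.022), with 27.6 CPM in food-deprived and 3.69 CPM in normal MO, against 167 and 119 CPM in Astro. Phyhd1 was lost without food-deprived 2 or normal 3 (adjusted p = 0.421 and 0.731). Marcks passed only with these cells, at 2.17 (adjusted p = 0.0069; 1.53 and 0.20 without).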

How the data were processed

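The authors deposited raw UMI counts per gene and barcode for each of 17 Drop-seq libraries, 1 merged count table of 23284 genes and a cluster name per cell. The build is mm9 per the submitters' processing notes, and neither aligner nor counting tool was found in the labels. Counts of all joined cells were equal in both tables, and 40 MO cells whose barcode occurred in 2 libraries of their batch and state were left out. Counts were summed per mouse with at least 20 cells of a class and tested with edgeR 4.0.16 in R 4.3.3 (TMM, filterByExpr, quasi-likelihood test, Benjamini-Hochberg threshold 0.05), with DESeq2 1.42.0 as an alternative. SE is the absolute log2 change over the root of F. Batch numbers in the labels pair mice and gave the block. Shares have Wilson intervals and exact permutation tests. The fit was tested on simulated counts. The members and lists were chosen with earlier results of these data known. Named genes were the 5 markers, the 10 highest, the 10 with the largest ratio to other classes, the 10 largest and 5 smallest ratios to IMO, all genes called with or without the block, the 10 smallest p-values, up to 4 of each list by p (and by level for MO functions), up to 5 genes of each response difference, and subtype genes. Not all of these are printed, and 1 gene is not reported here. Leaving out mixed cells and DESeq2 with the block were added after the data were seen.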

Additional observations from a re-analysis of the deposited data

Results flagged for a closer look

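Of 63 groups of 5 normal mice tested for a mouse standing apart, 6 had one whose gap to the nearest other exceeded 0.71 of the range, where chance gives about 1 in 20. In normal 2, Cdkn1a was at 296.9 CPM (others 0 to 60.3), Fam107a at 49.48 CPM (others 10.13 to 13.78) and Phyhd1 at 74.23 CPM (others 0 to 4.307). In normal 1, Sdf2l1 was at 13.21 CPM (others 39.63 to 49.48) and Slc11a2 at 105.7 CPM (others 24.31 to 29.97). In normal 5, Fos was at 3158 CPM (others 1497 to 1865). Normal 1 and 2 had 37 and 36 MO cells, with 74863 and 79326 UMIs in all. Their values of Sdf2l1, Fam107a and Phyhd1 therefore rest on few UMIs.

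The response to food deprivation differed between MO and another class in 15 tests of the class by feeding state term (edgeR, log2 response in MO minus that in the other class). Against IMO the differences were 1.73 for Scrg1, 1.64 for 9630013A20Rik and 1.531 for Marcks. Against OPC they were 1.362 for Scrg1, 1.611 for Cdkn1a, -0.9749 for Ugt8a, 0.8612 for Htra1, 0.8407 for Mtap7d2, 2.89 for Pomc, 0.9038 for Pcp4, 0.9624 for Resp18, -1.499 for Avp and 1.017 for Atf3. Against Astro they were 2.167 for Marcks and 2.706 for Phyhd1. Pomc, Pcp4, Resp18 and Avp are genes of neurons, and the part of neuronal RNA in these values was not tested.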

How the results depend on the processing

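The count of genes called between food-deprived and normal MO was 0 in the fit with feeding state alone. It was 22 without a filter on low counts, 1 with DESeq2, 16 with batch as replicate block, 71 with the block in batches 1 and 2 only, 37 with the block in low-Gapdh libraries and 3 with DESeq2 and the block, and 0 to 1 with 1 mouse left out. In high-Gapdh libraries without the block it was 0. The pairing comes from the batch numbers in the labels. The cause of these differences was not tested. Of 60 named genes, 53 kept the sign of the log2 change in every alternative in which they were fitted (18 to 24 for each gene). The 7 others were Fabp5, Gapdh, Mal, Mog, Nr4a1, Opalin and Ppia. Over the values of all 60 genes, 37 reversed, 76 kept the sign and passed the threshold, and 1306 kept the sign and did not pass. Gapdh passed in 2 alternatives and Ppia in 3, each time with the sign reversed, and these are counted among the 37. With the block, with the block in batches 1 and 2 only, with DESeq2 and the block, and with the block without mixed cells, Fabp5 was at 0.15, 0.15, 0.16 and 0.16, Gapdh at 1.79, 1.79, 1.98 and 1.77, and Ppia at 1.35, 1.34, 1.37 and 1.34. Mog was at -0.00055 and -0.0060 with the block in all mice and in batches 1 and 2. In high-Gapdh libraries the values were 0.76 for Gapdh, 0.74 for Ppia, -0.11 for Mal, -0.13 for Mog and -0.18 for Opalin, and Ppia was at 0.39 in low-Gapdh libraries with the block. Opalin was at -0.013 with DESeq2 size factors and -0.0080 with DESeq2. With 1 mouse left out the ranges were -0.996 to 0.27 for Gapdh, -0.0499 to 0.195 for Mal, -0.026 to 0.058 for Mog, -0.062 to 0.496 for Nr4a1, -0.077 to 0.13 for Opalin and -0.62 to 0.16 for Ppia. The difference in MO share of annotated cells, -2.61 points, was 4.08 in low-Gapdh libraries and 4.32 within batches (replicate block), and -7.04 to 5.70 with 1 mouse left out, positive only without food-deprived 3. That in the MO share of oligodendrocyte lineage cells (MO, IMO, OPC, POPC), -2.42 points, was 9.41 and 8.80 in the same settings, and -8.72 to 7.51 with 1 mouse left out. The log2 difference in median UMIs per MO cell, 0.12, was -0.062 and -0.073, and 0.0096 to 0.27 with 1 mouse left out. The counts of genes whose response differed from IMO, OPC and Astro were 3, 10 and 2. They were 0, 0 and 0 with DESeq2, 0, 29 and 38 with batch by class terms (replicate block), 3, 12 and 4 without a filter, and 1, 12 and 1 without mixed cells. With 1 mouse left out they were 1 to 7, 2 to 19 and 1 to 10. Normal 1 and 2 and food-deprived 3 have 36 to 61 MO cells, which limits the precision of low genes.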
